A study of Homo sapiens with 2 samples.

Results

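Inflammatory cytokine and chemokine genes that NF-κB is known to drive were examined after knockdown of SUB1, a transcriptional coactivator that binds single-stranded DNA, in PC3 cells. PC3 is an established prostate cancer cell line derived from a metastasis. The set held 10 genes chosen by name: the chemokines CXCL8 (IL8 on the array), CXCL1, CXCL2, CXCL3, CCL2 and CCL20, the interleukins IL1A, IL1B and IL6, and NFKBIA, which encodes the NF-κB inhibitor IκBα. The array carried 13 probes for these genes, and 8 of the 10 genes were above background under the detection rule applied to all genes, among 19218 genes kept in all. RNA was profiled on 2 dual-colour Agilent whole human genome arrays that share a slide. In either case the Cy3 channel held RNA of PC3 cells given Non-T (non-targeting) siRNA and the Cy5 channel held RNA of PC3 cells given a SUB1 siRNA duplex, siRNA 1 on one array and siRNA 2 on the other. The siRNAs were given in a pair of transfections 24 h apart, and the RNA is that of the 72 h time point. The sources do not state how many cultures contributed to each RNA, or whether both arrays carried the same Non-T RNA.

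NF-κB is a family of dimeric transcription factors that IκB proteins hold in the cytoplasm. Signals from interleukin-1, TNF and Toll-like receptors activate the IκB kinase, IκB is degraded, and the freed dimers bind κB sites in the promoters of cytokine and chemokine genes. NFKBIA is itself such a target, so its product restores the block. In prostate cancer the pathway is known for tonic activity in androgen-independent lines, PC3 among them, which secrete interleukin-6 and interleukin-8.

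Promoters of some members are shown because κB sites are the sequence that the group is known to share. Every promoter shown holds a match as defined next, and that of IL1B, which holds none, is not shown. Each line gives the 120 bases before the start of the gene, 5′ to 3′ on the strand of the gene, from RefSeq annotation of GRCh38.p14, and capitals mark matches to the κB consensus or to its looser form GGNNNTTCC on either strand.
CXCL8: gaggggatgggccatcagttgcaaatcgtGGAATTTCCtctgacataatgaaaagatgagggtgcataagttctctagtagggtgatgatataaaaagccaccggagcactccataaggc
CXCL1: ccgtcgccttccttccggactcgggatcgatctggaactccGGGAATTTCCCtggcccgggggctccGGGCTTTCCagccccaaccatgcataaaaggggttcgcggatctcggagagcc
CXCL2: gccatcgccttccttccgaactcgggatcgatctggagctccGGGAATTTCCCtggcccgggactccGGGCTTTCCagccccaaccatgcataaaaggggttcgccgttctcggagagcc
CXCL3: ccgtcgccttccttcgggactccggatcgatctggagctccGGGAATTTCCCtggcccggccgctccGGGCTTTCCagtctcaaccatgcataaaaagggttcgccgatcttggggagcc
IL6: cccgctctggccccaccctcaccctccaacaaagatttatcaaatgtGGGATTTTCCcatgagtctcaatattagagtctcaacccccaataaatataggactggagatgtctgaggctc
NFKBIA: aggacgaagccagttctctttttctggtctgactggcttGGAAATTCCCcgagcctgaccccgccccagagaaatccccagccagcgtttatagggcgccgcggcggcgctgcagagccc
These windows lie at chr4:73740449-73740568 (plus strand) for CXCL8, chr4:73869273-73869392 (plus strand) for CXCL1, chr4:74099196-74099315 (minus strand) for CXCL2 and chr4:74038690-74038809 (minus strand) for CXCL3. That of IL6 lies at chr7:22727080-22727199 (plus strand) and that of NFKBIA at chr14:35404750-35404869 (minus strand). RefSeq windows of 300 bases (250 before to 50 after the start) were at hand for 9 of the 10 genes, not for CCL2, and IL1A had a pair of starts. The κB consensus matched in 6 of the 9 genes (CXCL1, CXCL2, CXCL3, IL6, CCL20 and NFKBIA), and 11.3% of all 35116 windows of this length hold it. GGNNNTTCC, which overlaps every consensus match in these genes, was found in 7 of the 9, CXCL8 being the addition, against 20.1% of all windows. TGANTCA, the letters of an AP-1 site, was found in CXCL8 at positions -137 to -131 from the start, upstream of the printed bases, and in IL1A, against 7.71% of all windows. IL1B held none of these letters in its window. A match describes the letters only.

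The 120 printed bases of the CXC chemokine genes CXCL1, CXCL2 and CXCL3 were alike. Between CXCL1 and CXCL2, 113 of 121 aligned columns were the same (93.4%). The identity was 90.8% between CXCL1 and CXCL3 and 88.4% between CXCL2 and CXCL3. Over the whole windows of 300 bases it was lower, at 72.9%, 82.5% and 73.8% in that order. Each of the 3 held a κB consensus match that starts at position -79 or -78 and a looser match at positions -53 to -45. On the arrays, CXCL1 passed 2-fold and no probe of CXCL2 or CXCL3 did, a difference between genes that was not tested.

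SUB1 itself was measured by 4 probes, all above background. Log2 ratios at its brightest probe were -3.30 (siRNA 1) and -3.26 (siRNA 2), which leaves 10.2% and 10.4% of the Non-T signal. Across the 4 probes the siRNA 1 values ran from -3.75 to -1.81 and the siRNA 2 values from -3.50 to -1.57. The share of spots well above background was 54.3% in Cy3 on both arrays and 67.2% (siRNA 1) or 64.5% (siRNA 2) in Cy5. With 1 array per siRNA, no test is possible for a single array, and a gene was called where its log2 ratio was at least 1 in size (2-fold), the rule in the methods. Technical error was taken from the 209 probes printed at 10 spots, whose median SD between spots was 0.08 log2 units with siRNA 1 and 0.07 with siRNA 2. For a gene with 1 spot, the SD of such probes nearest to it in intensity is given. Neither error covers the spread between cultures. No dyes were swapped, so what the dye does to a probe and what the knockdown does to its gene cannot be told apart. ACTB, a reference gene, had log2 ratios of 0.75 and 0.37 at its brightest probe, and its 4 probes ran from -0.09 to 0.75 and from -0.35 to 0.37. GAPDH stood at 0.01 and -0.07, HPRT1 at -0.38 and -0.33, and TBP at 0.11 and 0.16.

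CXCL1 was at least 2-fold lower with either siRNA (log2 ratios -1.34 and -1.03), CXCL8 was past that line with siRNA 2 (log2 ratio -1.22) and not with siRNA 1 (-0.47), and no member was at least 2-fold higher on either array. With siRNA 2, median centring, the processed signals of the scanner software and the authors' table each put CXCL1 short of 2-fold and IL6 past it. With siRNA 1, 1 of the 8 members measured was at least 2-fold lower, beside 0.609% of all genes, and 0 of 8 at least 2-fold higher, beside 0.208%. With siRNA 2, 2 of 8 were at least 2-fold lower, beside 1.07% of all genes, and 0 of 8 higher, beside 0.614%. The median log2 ratio of the 8 members was -0.35 with siRNA 1 and -0.25 with siRNA 2, while the median of all genes was 0.02 on both arrays. Median centring gave member medians of -0.16 and -0.052, and dropping the filter on dim probes gave -0.13 and -0.12. The arrays share the Non-T condition.

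**Figure D1:**
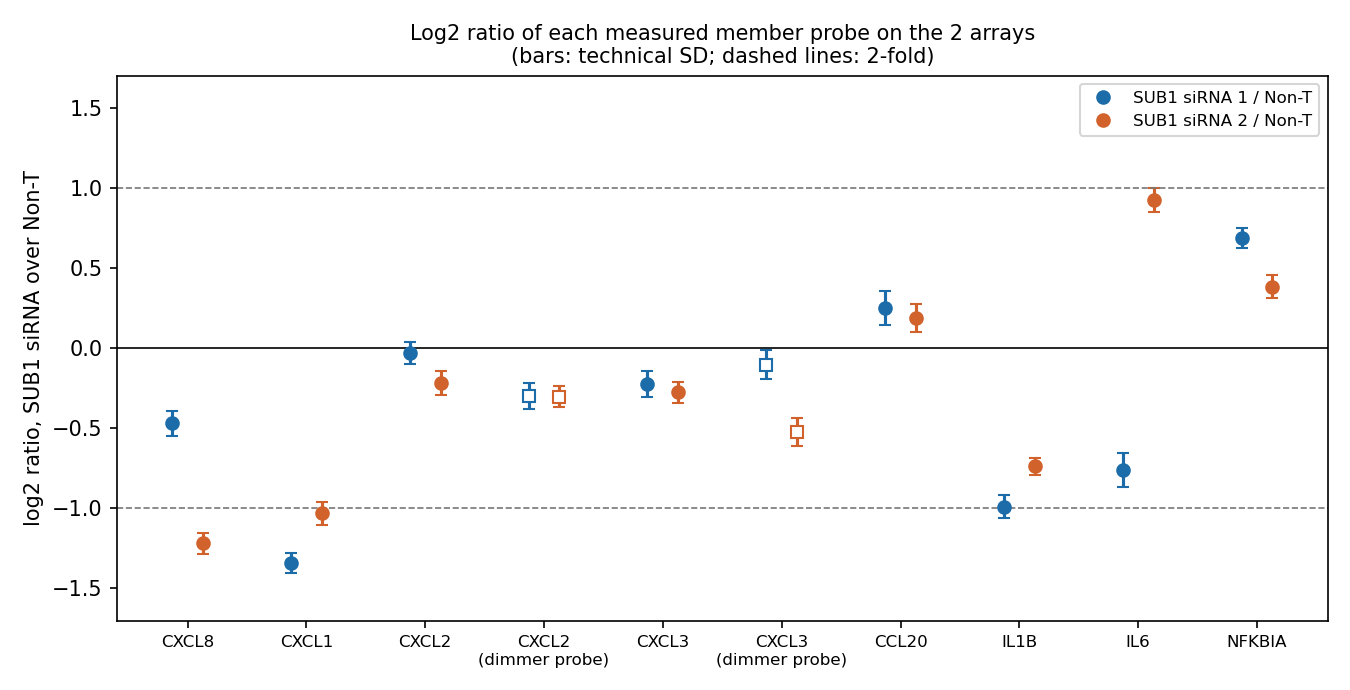
Log2 ratio to Non-T of SUB1 siRNA for every member probe above background, siRNA 1 in blue and siRNA 2 in orange; filled circles are the brightest probe of a gene, open squares a dimmer one, and bars the technical SD. CXCL1 sits below the dashed 2-fold line on both arrays, CXCL8 with siRNA 2, and IL6 lies at -0.76 with siRNA 1 and at 0.93 with siRNA 2.

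In a further test, limma compared the mean over the siRNAs with 0, with Benjamini-Hochberg adjustment over all 19218 genes. None of the 8 members passed an adjusted p of 0.05. SUB1 was the 1 gene that did (0.0052% of genes). SUB1 did not pass without background correction, with median spot signals, median centring or the processed signals, or in the authors' table. Its mean log2 ratio under those choices lay between -3.33 and -3.02. At an unadjusted p of 0.05, 4 of the 8 members passed (CXCL1, IL1B, CXCL8 and NFKBIA), beside 20.9% of all genes. Each tested ratio is to the Non-T channel of its own array. If both arrays carried the same Non-T RNA, which is not stated, the spread between Non-T cultures is left out. Since the arrays are not stated to come from separate experiments, the p-values of this test measure only the spread between these arrays. The SE given with each mean is moderated by limma, which draws it towards the spread of all genes. The plain SE of the 2 arrays was larger for IL6 (0.84), CXCL8 (0.37), CXCL1 (0.16), NFKBIA (0.15) and IL1B (0.13). It was smaller for CXCL2, CXCL3 and CCL20.

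CXCL1 is a chemokine that attracts neutrophils through the receptor CXCR2. Its probe lies at chr4:74955714-74955773 of hg18, the build that the array headers name. The normalised log2 intensity in the Non-T channel was 12.93 on the array of siRNA 1 and 13.17 on that of siRNA 2. In the SUB1 siRNA channel it was 11.59 and 12.14, below both Non-T values. The log2 ratio was -1.34 (technical SD 0.06, 1 spot) with siRNA 1 and -1.03 (0.07) with siRNA 2. The signal left was 39.4% and 48.9% of that of Non-T. Among the 19218 genes these were the 40th and the 184th lowest ratios. The mean was -1.19 ± 0.12 (moderated SE, n = 2 arrays) with a limma adjusted p of 0.114. Without the filter on dim probes that p was 0.0469, and over all alternatives it ran from 0.0469 to 0.175.

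CXCL8 encodes interleukin-8, a neutrophil attractant that binds CXCR1 and CXCR2. Its informative probe lies at chr4:74828129-74828188. The Non-T log2 intensity was 9.26 and 9.39, and the SUB1 siRNA intensity was 8.79 with siRNA 1 and 8.17 with siRNA 2. Both values of the knockdown were below both of Non-T, and the lower of them was that of siRNA 2. The log2 ratio was -0.47 (technical SD 0.08) with siRNA 1 and -1.22 (0.07) with siRNA 2, which is 1.38-fold and 2.33-fold less signal than Non-T. The ratio with siRNA 2 was the 106th lowest of all genes and that with siRNA 1 the 991st. Median centring gave -0.27 with siRNA 1 and -1.04 with siRNA 2. The mean was -0.84 ± 0.20 (moderated SE, n = 2 arrays; limma adjusted p = 0.147). A second probe that the array files name IL8 was well above background in no channel. The files place it at chr17:39682083-39682142, on another chromosome than the gene, and no value of it is used.

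CXCL2 and CXCL3, neutrophil attractants that also bind CXCR2, were each measured by 2 probes on chromosome 4. The brighter CXCL2 probe had Non-T log2 intensities of 9.97 and 9.89, and SUB1 siRNA intensities of 9.94 and 9.67. The log2 ratios were -0.03 (siRNA 1) and -0.22 (siRNA 2). The other CXCL2 probe gave -0.30 on both arrays. With siRNA 1 the probes of this gene thus disagreed by more than the technical SD of 0.07 to 0.08. The brighter CXCL3 probe had Non-T intensities of 8.69 and 8.73 and SUB1 siRNA intensities of 8.47 and 8.45, and its ratio was -0.22 and -0.28. The dimmer CXCL3 probe gave -0.10 and -0.52. None of these 4 probes passed the 2-fold line on either array. The sign of the CXCL2 ratio turned under another scaling: median centring in place of loess gave 0.19 and 0.00. For CXCL3 the same choice gave -0.05 and -0.11. The limma adjusted p was 0.529 for CXCL2 and 0.243 for CXCL3. The transcripts of CXCL1, CXCL2 and CXCL3 are related in sequence, and cross-hybridisation between their probes was not tested.

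CCL20, the ligand of CCR6 on T cells and dendritic cells, was dim. Its Non-T log2 intensity was 6.84 and 6.73, near the lowest signal well above background in that channel (6.27 and 6.41). With SUB1 siRNA it was 7.09 and 6.92. The ratio was 0.25 (technical SD 0.10) with siRNA 1 and 0.19 (0.09) with siRNA 2, and limma gave an adjusted p of 0.281. The processed signals of the scanner software gave 0.69 and 0.46, and the authors' table gave 0.12 and 0.08. CCL2, which attracts monocytes through CCR2, was printed at 10 spots, and 0 of 10 were well above background in any of the 4 channels. No fold is given for it. Its mean log2 intensity lay between 6.06 and 6.13 in the 4 channels.

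**Figure D2:**
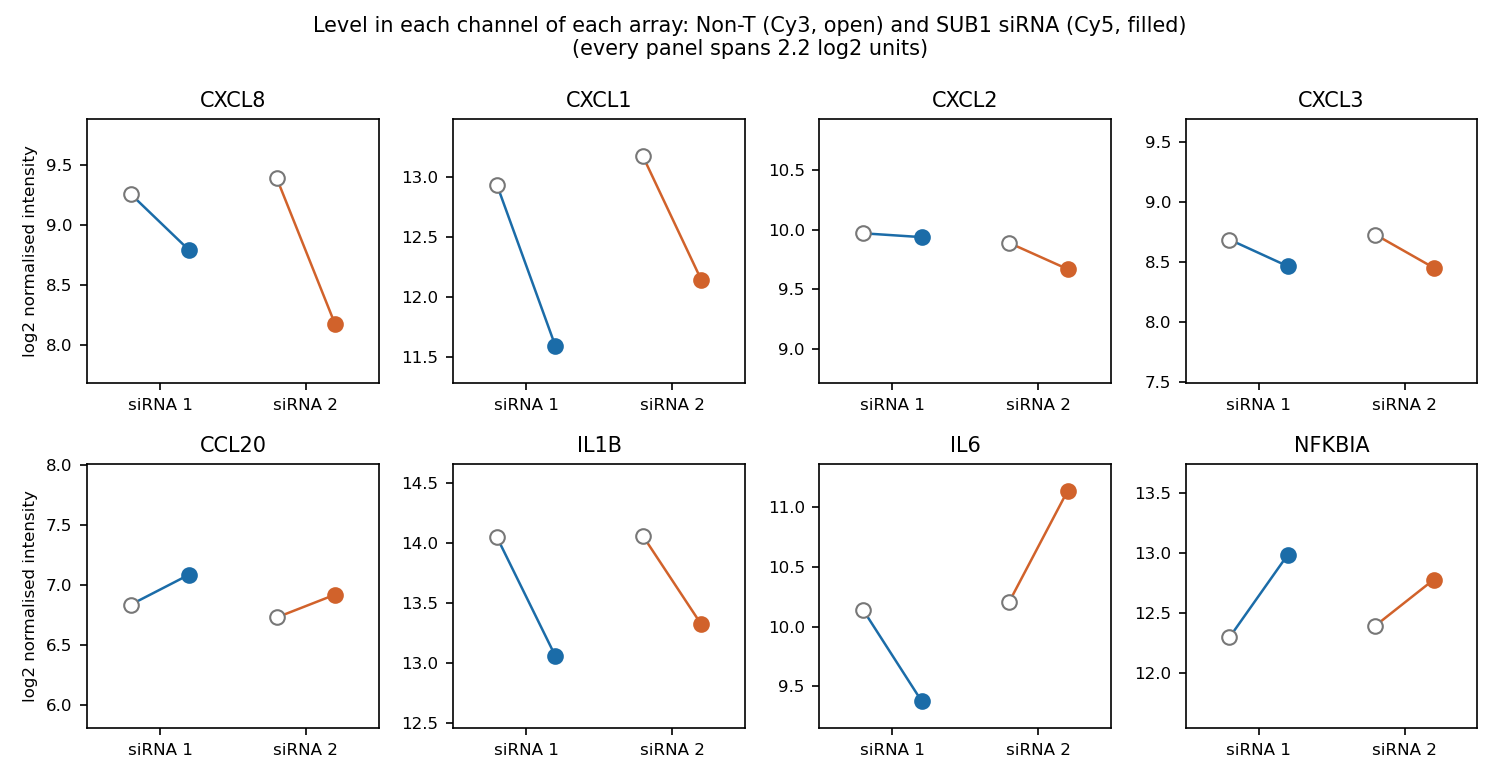
Normalised log2 intensity of the brightest probe of each member in the Non-T channel (open circles) and the SUB1 siRNA channel (filled circles) of each array; lines join the channels of an array and every panel spans the same range. For IL6 the Non-T circles sit at 10.14 and 10.20 while the SUB1 siRNA circles sit at 9.38 and 11.13. Heights are not comparable between panels.

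IL6, a cytokine that signals through IL6ST (gp130) and STAT3, was the member on which the siRNAs went in opposite directions. Its probe, at chr7:22737732-22737791, was printed at 10 spots, all well above background in the 4 channels. The Non-T log2 intensity was 10.14 on the array of siRNA 1 and 10.20 on that of siRNA 2. The SUB1 siRNA intensity was 9.38 with siRNA 1 and 11.13 with siRNA 2. Non-T thus lay between the knockdowns, and its values on the arrays differed by 0.07 against 1.75 for the knockdown channels. The single-spot ratios ran from -0.85 through a median of -0.79 to -0.48 with siRNA 1. With siRNA 2 they ran from 0.85 through a median of 0.91 to 1.07. No spot of one array overlapped those of the other. The mean over spots was -0.76 ± 0.11 (SD over 10 spots of 1 array) with siRNA 1 and 0.93 ± 0.07 with siRNA 2, a 1.69-fold lower and a 1.90-fold higher signal. Spots share the RNA of their array, so their spread says nothing of the spread between cultures. The difference, siRNA 2 minus siRNA 1, was 1.68 and was the 9th highest of 19218 genes. It was not tested, since each siRNA has 1 array. The mean of both siRNAs, 0.08 ± 0.41 (moderated SE, n = 2 arrays; limma adjusted p = 0.924), averages opposite values, and its plain SE was 0.84.

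IL1B encodes interleukin-1β, which acts through IL1R1 and IL1RAP to activate NF-κB. Its probe lies at chr2:113303900-113303959 and was printed at 10 spots. The Non-T log2 intensity was 14.05 and 14.06, and the SUB1 siRNA intensity was 13.06 and 13.32. The knockdown values were below both Non-T values, with no overlap. Single spots ran from -1.12 to -0.92 with siRNA 1 (median -0.97) and from -0.81 to -0.66 with siRNA 2 (median -0.74). The mean ratio was -0.99 ± 0.07 (SD over 10 spots) with siRNA 1, just short of the 2-fold line at 1.99-fold, and -0.74 ± 0.05 with siRNA 2. The signals left were 50.3% and 60.0% of Non-T. Median centring in place of loess gave -0.64 and -0.36, and the authors' table -0.82 and -0.54. The mean of both was -0.86 ± 0.11 (moderated SE, n = 2 arrays; limma adjusted p = 0.114). IL1A, the sister cytokine at the same receptor, was well above background at 9 of 10 spots in the Cy5 channel of siRNA 1 and at 0 of 10 in the other 3 channels. Its log2 intensity there, 6.32, was above the lowest Non-T signal well above background on that array (6.27) and below the mean of that floor over both arrays (6.34), the bound used here, so no fold is given.

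**Figure D3:**
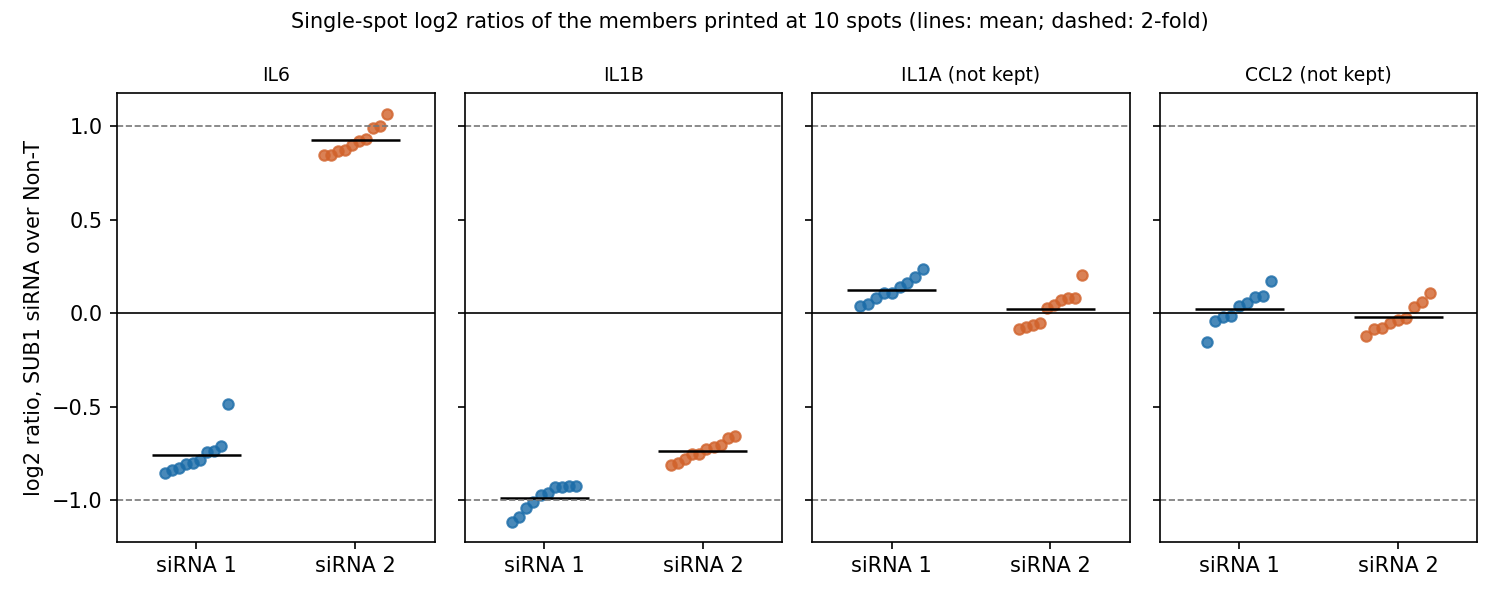
Log2 ratio of each spot, SUB1 siRNA over Non-T, for the 4 members printed at 10 spots, without outlier spots; black lines are means. The IL6 spots lie between -0.85 and -0.48 with siRNA 1 and between 0.85 and 1.07 with siRNA 2, whereas the IL1B spots are below 0 on both arrays. IL1A and CCL2 were not kept by the detection rule.

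NFKBIA, whose product IκBα retains NF-κB in the cytoplasm, had ratios above 0 with both siRNAs. The probe lies at chr14:34940539-34940598. Its Non-T log2 intensity was 12.29 and 12.39, and its SUB1 siRNA intensity was 12.98 and 12.78. The knockdown values were above both Non-T values. The log2 ratio was 0.69 (technical SD 0.06) with siRNA 1 and 0.38 (0.07) with siRNA 2, or 1.61-fold and 1.31-fold more signal than Non-T. These were the 246th and the 1834th highest of all genes. Median centring gave 0.997 and 0.70, short of 2-fold on both arrays. The mean was 0.54 ± 0.12 (moderated SE, n = 2 arrays; limma adjusted p = 0.140). Among the reference genes, the brightest ACTB probe had ratios of the same direction and similar size (0.75 and 0.37). Its other 3 probes stood at 0.50 and 0.13, 0.12 and -0.25, and -0.09 and -0.35, GAPDH at 0.01 and -0.07, and HPRT1 at -0.38 and -0.33.

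The other parts of the pathway were described with lists of genes, by the same 2-fold rule, whose calls over all genes were 0.208% (higher) and 0.609% (lower) for siRNA 1 and 0.614% and 1.07% for siRNA 2. At these shares, lists of this size would hold few calls or none, and a count of 0 is no result about a list. None of the genes in these lists, members excepted, was at least 2-fold changed with siRNA 1, and no listed gene passed an adjusted p of 0.05 in limma. All 5 NF-κB subunits were measured, and 0 of 5 were 2-fold changed with either siRNA (medians -0.19 and -0.02). NFKB1, the precursor of p50, had log2 ratios of -0.22 and -0.40, NFKB2 -0.22 and -0.13, and RELB 0.33 and 0.40. Of 14 IκB proteins and other inhibitors, 12 were measured and none was 2-fold changed (medians 0.05 and 0.01). In that list NFKBIB, a further IκB, stood at 0.23 and 0.83 at its brightest probe. Its dimmer probes gave 0.01 and 0.52, and -0.01 and 0.25. ZC3H12A, a nuclease that degrades IL6 and other cytokine transcripts, stood at 0.66 and 0.29, and TNIP2 at -0.47 and -0.39. Of 35 kinases and adaptors, 34 were measured and none was 2-fold changed (medians -0.01 and 0.02). IRAK1, a kinase below the interleukin-1 receptor, stood at -0.64 and -0.47, BIRC3 at 0.53 and 0.26, and RNF31 at -0.31 and -0.39.

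Upstream receptors were measured for 11 of 18 genes, with medians of -0.04 and 0.11. Of the 18, 7 were detected in the Non-T channel of the siRNA 1 array and 6 in that of siRNA 2. The medians thus include genes kept through Cy5 alone. TLR3, the sensor of double-stranded RNA, was 2.19-fold higher with siRNA 2 (log2 ratio 1.13) and stood at 0.04 with siRNA 1. CD40 stood at -0.27 and -0.15. Of the 9 receptor genes of the members, 3 were above background. These were IL6R (0.50 and 0.34), IL6ST (-0.16 and -0.07) and IL1RAP (0.51 and 0.11). The probes of IL1RAP disagreed, since a dimmer probe, well above background in every channel, gave -0.32 on both arrays. CXCR1, CXCR2, ACKR1, CCR2, CCR6 and IL1R1 were not kept.

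Secreted factors outside the set were measured for 26 of 36 genes, with medians of -0.13 and -0.11. Of the 36, 20 were detected in the Non-T channel of either array, so these medians also include genes kept through Cy5 alone. LIF, a cytokine of the interleukin-6 family, had log2 ratios of -0.71 and -0.84, and CSF2 (GM-CSF) of -0.44 and -0.79. TNFSF10 (TRAIL) stood at 0.36 with siRNA 1 and was 2.96-fold higher with siRNA 2 (1.57). Other NF-κB targets were measured for 28 of 34 genes, with medians of 0.02 and 0.10. With siRNA 2, 2 of the 28 were at least 2-fold lower, beside 1.07% of all genes: PLAU (urokinase) at -1.85, against -0.51 with siRNA 1, and CD44 at -1.04, against -0.83. SERPINB2, an inhibitor of urokinase, stood at 0.52 and 0.97 at its brightest probe. A dimmer probe gave 0.09 and 0.32.

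AP-1 and C/EBP factors, which act beside NF-κB at the CXCL8 and IL6 promoters, were measured for 11 of 13 genes, with medians of 0.16 and 0.27. With siRNA 2, 3 of the 11 were at least 2-fold higher, JUNB (1.48), ATF3 (1.09) and CEBPD (1.05), and FOSL1 was 2-fold lower (-1.14), beside 0.614% of all genes higher and 1.07% lower. With siRNA 1 their ratios were 0.19, 0.16, 0.58 and -0.89 in that order. The calls of JUNB, ATF3 and FOSL1 rest on the brightest probe. With siRNA 2 a dimmer probe of JUNB stood at 0.37 and 1 of FOSL1 at -0.88, both short of 2-fold. A dimmer ATF3 probe (0.38) was also short of it and was well above background in Cy5 alone. AU-rich elements are sequences through which the turnover of cytokine transcripts is controlled. All 11 genes listed for decay through them were measured (medians 0.07 and 0.07). The list holds proteins that bind these elements and general factors of transcript turnover, among the latter PABPC1, which binds poly(A) tails. PABPC1 was 2-fold lower with siRNA 2 (-1.08, against -0.56 with siRNA 1), HNRNPD stood at -0.36 and -0.49, and ELAVL1 at -0.05 and -0.43. The probes of ELAVL1 disagreed: a slightly dimmer probe gave 0.47 and 0.31, and another gave -0.17 and -0.26.

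**Figure D4:**
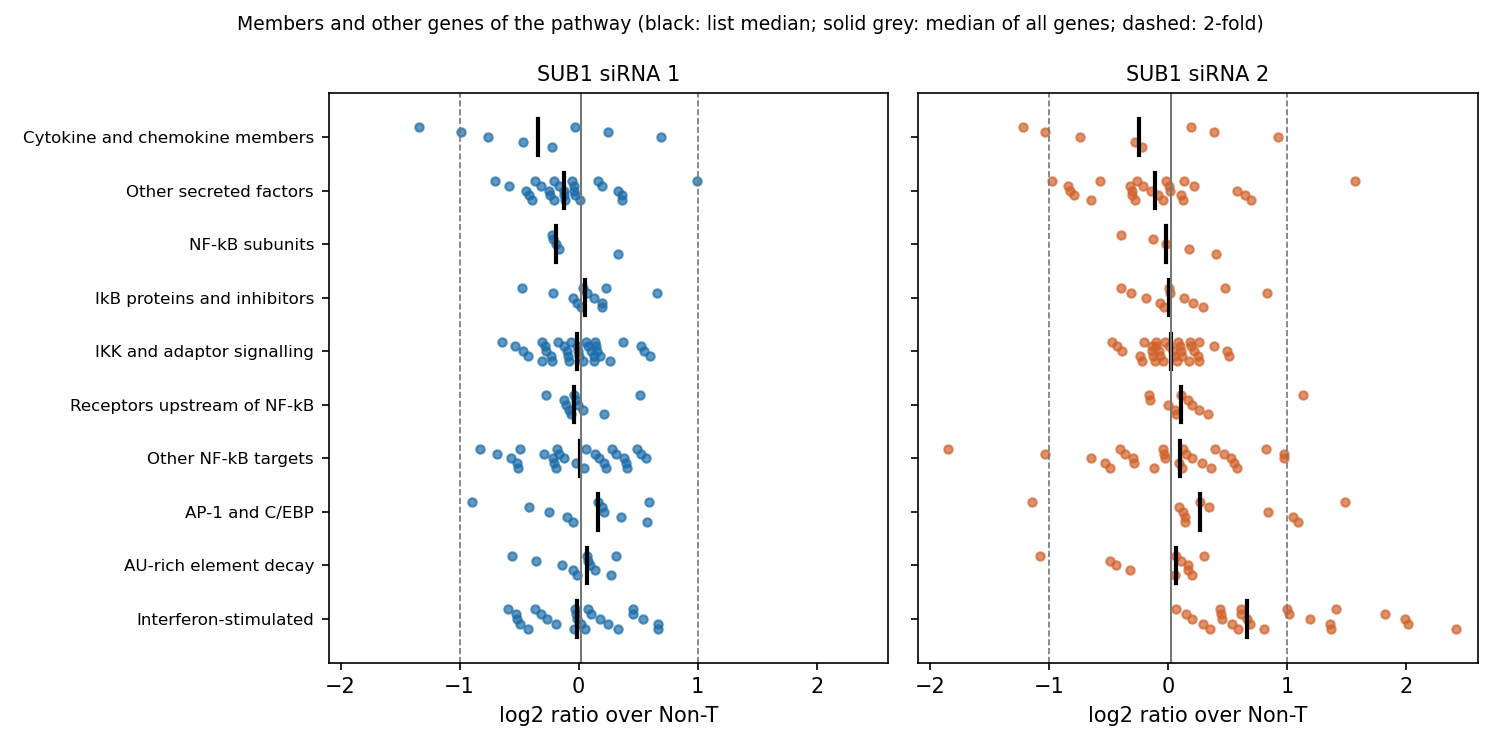
Log2 ratio over Non-T of each gene above background in 10 lists, siRNA 1 on the left and siRNA 2 on the right; each point is a gene, black ticks are list medians, and the solid grey line is the median of all genes at 0.02. The member medians are -0.35 and -0.25, and those of the interferon-stimulated list are -0.02 (siRNA 1) and 0.67 (siRNA 2).

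Interferon-stimulated genes are given beside IL6 because siRNA 2 gave the larger list median, as it gave the larger IL6 ratio. Neither difference was tested. The list was chosen with earlier results of these data known, so its counts beside the share of all genes are a description, not a test. All 25 genes were measured, and 9 of 25 were at least 2-fold higher with siRNA 2, beside 0.614% of all genes, against 0 of 25 with siRNA 1, beside 0.208% (medians 0.67 and -0.02). RSAD2 stood at 2.42, RTP4 at 2.01, IFIT2 at 1.99 and ISG15 at 1.83 with siRNA 2. With siRNA 1 the same genes stood at 0.05, 0.67, -0.03 and 0.67. OASL (1.36), IFIH1 (1.37), XAF1 (1.42), IFI6 (1.19) and IFI27 (1.02) completed the 9. The calls of IFI6 and IFI27 rest on the brightest probe. A dimmer IFI6 probe, well above background in every channel, stood at -0.03 with siRNA 1 and -0.04 with siRNA 2. A dimmer IFI27 probe stood at 0.94 with siRNA 2, short of 2-fold. Whether these genes had a part in the IL6 ratio was not tested.

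The cell line was checked against its markers. All 6 epithelial and mesenchymal markers that PC3 is known to express were measured, the mesenchymal VIM (-0.28 and -0.48) and the epithelial CDH1 (0.59 and 0.22) and KRT8 (-0.07 and -0.19) among them. The 3 probes of KLK3, a marker of androgen-dependent prostate cells, disagreed: 1 was bright (0.30 and 0.21), 1 was well above background in Cy5 alone and 1 in no channel. TMPRSS2, another gene of such cells, was well above background in Cy5 alone, so no ratio is given. Leukocytes are the main source of several members in tissue. Of 10 leukocyte markers 4 were above background and PTPRC (CD45), LYZ and CSF1R were not. The log2 of the summed intensities of the 4 was 9.34 and 9.41 in Non-T, 9.20 with siRNA 1 and 9.81 with siRNA 2. Of them CD14 had ratios of 0.10 and 0.10 and CD68 of -0.29 and 0.58, while ITGAM was well above background in Cy5 alone. The RNA is that of a cultured cell line, so these signals are not read as leukocytes, and their source was not tested. Of 9 stromal and endothelial markers 5 were measured, and COL1A1 stood at 0.66 and 0.45, DCN at -0.19 and -0.11, and PECAM1 at -0.11 and -0.37.

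The calls of CXCL1 and IL6 on the array of siRNA 2 depended on the processing. CXCL1 was -1.03 there as reported, -0.95 with the processed signals of the scanner software, -0.94 in the authors' own table and -0.71 with median centring. IL6 was 0.93 as reported and 1.01, 1.05 and 1.17 under those choices, past 2-fold in each. CXCL1 with siRNA 1 and CXCL8 with siRNA 2 were at least 2-fold lower under all 11 alternatives that gave a value per gene, and the direction of every member other than CXCL2 held on both arrays.

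**Figure D5:**
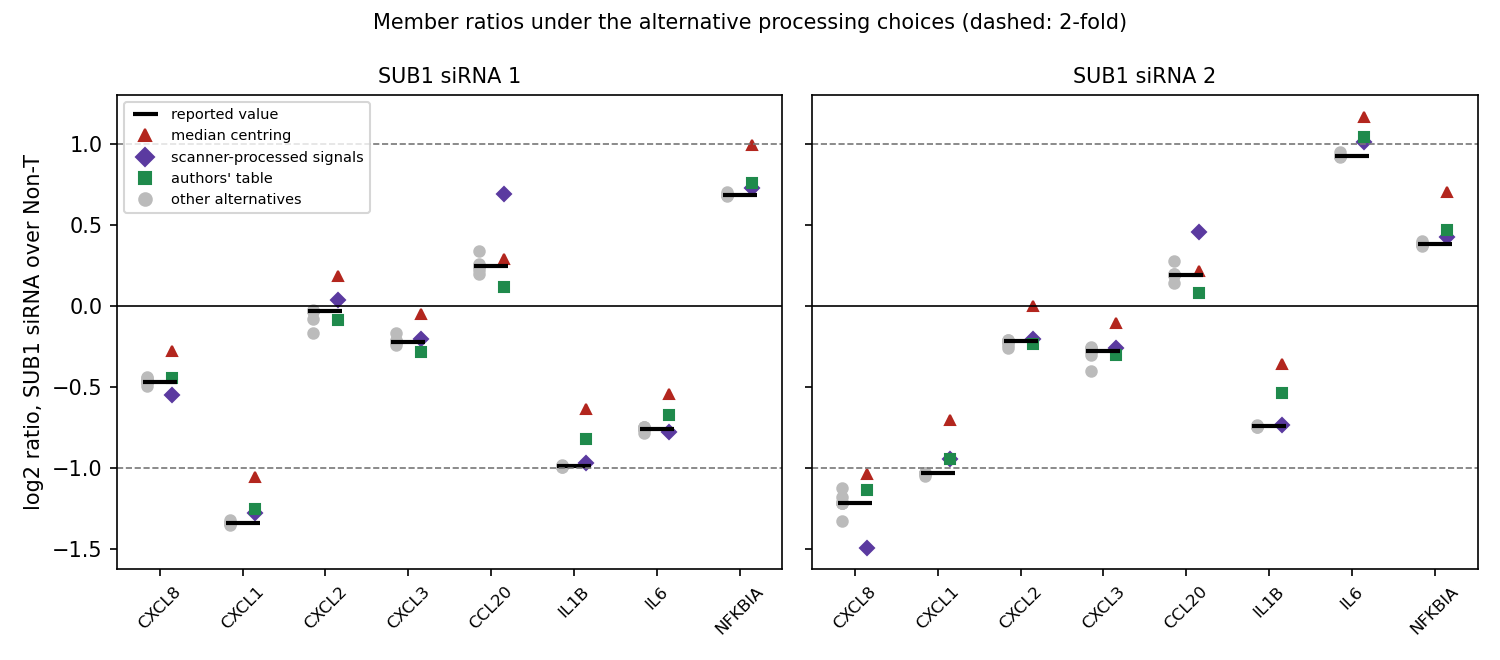
Log2 ratio of each member over Non-T as reported (black bars) and under 11 alternative processing choices, siRNA 1 on the left and siRNA 2 on the right; dashed lines mark 2-fold. With siRNA 2, IL6 passes the upper line under 3 choices, and CXCL1 falls inside the lower line under the same 3.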

How the data were processed

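Total RNA of PC3 cells was hybridised to 2 dual-colour Agilent arrays, 1 per SUB1 siRNA duplex, with Non-T in Cy3 and SUB1 siRNA in Cy5. The authors quantified the scans with Feature Extraction 9.5.1.1, per the file headers, and deposited spot intensities with their local background and flags. They also deposited a table of log2 ratios per spot; per the methods it was loess-normalised with agilp and its genes were selected by an absolute fold change of 2. Its scale and direction were settled against the scanner intensities (slope 1.01 and 1.02, Pearson correlation across probes 0.958 and 0.970), and it served as an alternative. The software's own log10 ratios and p-values, per the file headers, were not used.

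Here normexp (offset 50) took the median local background off the mean signals, which were then normalised within each array by loess (span 0.3, control spots at weight 0) in limma 3.58.1 under R 4.3.3. Levels per channel were scaled by Aquantile. Spots flagged as outliers (112 and 100) were left out and spots of a probe averaged. Detection required that a share of 0.5 or more of a probe's spots stood well above background in 1 channel or both on each array, which left 25673 of 41000 probes, and the brightest probe stood for a gene. Genes were named through RefSeq tables of GRCh38.p14 (13129 of 19218), the others as in the array files. Array coordinates are of hg18. No depth exists for arrays, whose number limits precision. The mean of both arrays was tested with limma (lmFit, eBayes, Benjamini-Hochberg); the fit was checked on simulated data. Alternatives changed the background correction, normalisation, source of values, filter, choice of probe, outlier spots and prior. Named were all members, SUB1, ACTB, GAPDH and, in each list, the 3 genes of largest mean ratio and those 2-fold changed; some marker genes that this rule covers are not reported here. Promoter windows were searched and aligned with Biopython 1.88. Members and lists were chosen with earlier results of these data known.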

Additional observations from a re-analysis of the deposited data

Results flagged for a closer look

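IL6 drew attention because its only array with siRNA 1 and its only array with siRNA 2 went in opposite directions from Non-T. The log2 ratio was -0.76 with siRNA 1 and 0.93 with siRNA 2, and the difference, siRNA 2 minus siRNA 1, was 1.68 (3.21-fold). The difference was not tested, since each siRNA has 1 array. It lay between 1.67 and 1.80 under every alternative that gave a value.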

How the results depend on the processing

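Of 176 member ratios (8 members, 2 arrays, 11 alternatives), 157 moved by less than the spread between the arrays (SD 0.15) and 19 by more. Of the 176, 6 fell on the other side of 2-fold and 3 had another sign, all 3 of CXCL2.

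Members at least 2-fold lower with siRNA 2 went from 2 to 1, and members at least 2-fold higher from 0 to 1, with median centring, with the processed signals of the scanner software and in the authors' table. The member median with siRNA 1 went from -0.35 to -0.16 with median centring and to -0.13 without the filter, which adds the 2 dim genes; with siRNA 2 these gave -0.052 and -0.12. Median centring also put the median of all genes at 0.13 and 0.12. Over all genes, those at least 2-fold lower numbered 117 with siRNA 1 and 205 with siRNA 2; median centring gave 56 and 101, the processed signals 297 and 471. Those at least 2-fold higher numbered 40 and 118; median centring gave 137 and 266, the processed signals 778 and 997, and normexp with offset 16 gave 84 and 189. The cause was not tested.

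The limma count of 1 gene became 0 without background correction, under median spot signals, median centring or the processed signals and in the authors' table, 3 with each probe on its own and 129 without the filter. Where it was 0, between 3890 and 5707 genes had an unadjusted p under 0.05. CXCL1 was the member that passed in the last (adjusted p = 0.0469; range 0.0469 to 0.175 over the alternatives). SUB1 ranged from 0.0025 to 0.175.

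Leaving out an array leaves a value with no test: CXCL1 ran from -1.34 to -1.03, IL1B from -0.99 to -0.74, CXCL8 from -1.22 to -0.47, NFKBIA from 0.38 to 0.69 and IL6 from -0.76 to 0.93. Each log2 ratio already pairs a knockdown with the Non-T channel of its own array, and no further pairing was possible with 1 array per siRNA. The slide could not be used as a block, since both arrays are on the same slide.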
